A study of Mus musculus with 5 samples.

Results

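The genes of the proteasome were followed through 5 single-cell libraries of mouse gut organoids. They were chosen by name, as every gene whose symbol starts with Psma to Psmg and a digit and that had at least 20 UMIs (unique molecular identifiers, which count captured transcripts) in all. Of 18323 genes with a UMI, 48 met this rule. Psmc3ip met it by name only, since its product is a recombination factor, and 47 genes are therefore described as members. They comprise 31 subunits of the 20S core and the 19S particle, which include the 3 constitutive catalytic subunits, and 16 others: the immunoproteasome and thymus subunits, assembly chaperones, activators and an inhibitor.

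Organoids, which are cultures of gut epithelium that grow in a gel, were dissociated, sorted into 384-well plates and sequenced by SORT-seq, a plate method that counts transcripts by short tags from their 3' ends. There was 1 plate, and so 1 library, per group. The fetal library came from fetal intestinal organoids labelled WT. The other libraries came from small intestinal organoids labelled WT, Lkb1 +/- (het) and Lkb1 -/-, the last with 2 libraries whose titles carry the unexplained marks Bud and Cys. Lkb1, also named Stk11, encodes a protein kinase that switches on AMPK and related kinases. All 5 groups share a growth protocol that lists basal medium with Egf, R-spondin1 and Noggin, and no further treatment is named. The labels do not say how Lkb1 was edited, how many clones or animals a library holds, or at which age the organoids were derived, so each comparison describes the libraries and not the genotypes.

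The proteasome is the protease that degrades proteins tagged with ubiquitin. Its barrel, the 20S core, is built of outer alpha rings and inner beta rings that hold the active sites, and the 19S regulatory particle binds the ubiquitin chain, unfolds the protein with its ring of ATPases and feeds it into the barrel. In cells that respond to interferon or belong to the immune system, the catalytic subunits Psmb5, Psmb6 and Psmb7 can be replaced by Psmb8, Psmb9 and Psmb10, which favours the peptides that MHC class I molecules present. When proteasome activity is short, the factor Nrf1 (gene Nfe2l1) raises the transcription of subunit genes through antioxidant response elements in their promoters.

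The kept wells, those with at least 1000 UMIs, numbered 302 (WT) to 371 (fetal) per library, with 4035219 (WT) to 5865507 (fetal) UMIs per library and 10414 (Cys) to 14637 (fetal) UMIs in the median well. Members took 0.571% (het) to 0.686% (Cys) of these UMIs. Well numbers repeat between plates, and 212 numbers were kept in all 5 libraries without marking shared cells. Wells in which the nuclear RNA Kcnq1ot1 took over 2% of UMIs, often taken as a sign of damaged cells, numbered 60 in het, 43 in Bud, 22 each in WT and Cys and 2 in fetal, and 2 very large wells held 12.04% of the UMIs of Cys. The 7 epithelial markers were detected in every library, at a summed 5129 (WT) to 6517 (Cys) CPM (UMIs per 1000000 UMIs of the library). The leukocyte marker Ptprc reached 0.511 CPM in fetal and had no UMI in the other 4 libraries. Mesenchymal markers summed to at most 2.62 CPM. The targeted gene Stk11 was at 20.6 CPM in WT, 16.0 in fetal, 14.1 in het (ratio to WT 0.686, 0.485 to 0.965), 11.7 in Bud (0.567, 0.390 to 0.817) and 9.03 in Cys (0.439, 0.299 to 0.639), the bracketed pairs being 95% counting intervals. Since the edited part of Stk11 is not described and 3' tags are counted, transcripts of an edited allele can still be counted. The endothelial gene Tek stood at 333 CPM in Cys, where the endothelial genes Pecam1, Cdh5 and Kdr had no UMI.

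Promoters of the members that the results below turn on are shown first, as 250 bases before the start site from RefSeq on GRCm38.p6, 5' to 3' on the strand of the gene. Capitals mark matches on either strand to 3 motifs: TGACNNNGC, the core of the antioxidant response element, CCGGAAG, a core bound by ETS factors, and CCAAT, bound by the factor NF-Y. Psma3, Psma6 and Psmc1 lie on the same chromosome, Psmd2 was called higher in 3 comparisons, Psmb5 and Psmb6 are catalytic subunits, and Psmg1 is a chaperone of the 20S core. No match of a motif overlaps a match of another motif in these windows.
Psma3 (chr12:70974373-70974622, forward strand): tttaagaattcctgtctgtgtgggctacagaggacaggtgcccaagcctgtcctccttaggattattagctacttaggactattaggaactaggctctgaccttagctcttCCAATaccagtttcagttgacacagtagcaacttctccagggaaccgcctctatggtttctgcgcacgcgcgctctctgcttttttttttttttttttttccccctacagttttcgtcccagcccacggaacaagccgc
Psma6 (chr12:55383972-55384221, forward strand): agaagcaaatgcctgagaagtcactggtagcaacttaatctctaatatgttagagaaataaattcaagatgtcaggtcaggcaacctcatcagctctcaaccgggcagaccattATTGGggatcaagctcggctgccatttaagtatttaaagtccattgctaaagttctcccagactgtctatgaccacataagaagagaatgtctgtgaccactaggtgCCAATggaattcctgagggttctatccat
Psmc1 (chr12:100109952-100110201, forward strand): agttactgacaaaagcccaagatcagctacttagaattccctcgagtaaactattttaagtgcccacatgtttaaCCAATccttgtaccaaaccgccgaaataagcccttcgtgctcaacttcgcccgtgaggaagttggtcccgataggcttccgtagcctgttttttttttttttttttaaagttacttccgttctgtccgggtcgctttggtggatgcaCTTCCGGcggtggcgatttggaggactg
Psmd2 (chr16:20651402-20651651, forward strand): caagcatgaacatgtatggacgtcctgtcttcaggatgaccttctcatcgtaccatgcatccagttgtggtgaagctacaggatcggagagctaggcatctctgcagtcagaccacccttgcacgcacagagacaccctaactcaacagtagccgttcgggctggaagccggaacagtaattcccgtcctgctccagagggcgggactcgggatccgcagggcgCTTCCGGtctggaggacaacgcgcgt
Psmb5 (chr14:54617996-54618245, reverse strand): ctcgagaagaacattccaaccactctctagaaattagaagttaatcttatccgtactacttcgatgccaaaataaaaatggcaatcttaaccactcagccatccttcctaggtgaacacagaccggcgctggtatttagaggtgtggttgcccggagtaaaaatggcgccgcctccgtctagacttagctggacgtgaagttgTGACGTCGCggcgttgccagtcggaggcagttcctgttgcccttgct
Psmb6 (chr11:70525107-70525356, forward strand): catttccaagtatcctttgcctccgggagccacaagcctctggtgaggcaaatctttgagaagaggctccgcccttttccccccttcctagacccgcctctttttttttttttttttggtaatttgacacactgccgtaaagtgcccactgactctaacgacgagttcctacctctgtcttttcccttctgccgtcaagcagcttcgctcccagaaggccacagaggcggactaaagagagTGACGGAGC
Psmg1 (chr16:95990961-95991210, reverse strand): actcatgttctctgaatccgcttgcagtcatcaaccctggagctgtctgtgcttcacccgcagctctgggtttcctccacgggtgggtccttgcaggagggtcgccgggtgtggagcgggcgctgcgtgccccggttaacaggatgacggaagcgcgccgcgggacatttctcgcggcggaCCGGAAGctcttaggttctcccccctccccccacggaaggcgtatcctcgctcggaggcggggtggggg

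Of the 47 members, 40 had a promoter in the RefSeq table. The antioxidant response core was found in 5 of them (12.5%), against 10.2% of all 27025 promoters in the table. These 5 were Psmb5, Psmb6, Psmc6, Psmd9 and Psmd12, with the match 47 and 9 bases before the start in Psmb5 and Psmb6. The ETS core was found in 11 of 40 (27.5%), against 7.05% of all promoters, and the CCAAT letters in 14 of 40 (35.0%), against 34.5%. A match is a string of letters and not a binding site, and no binding was measured here.

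As a whole, the proteasome differed little between the libraries. The summed level of the 47 members was 6821 CPM in fetal, 6275 in WT, 5709 in het, 6526 in Bud and 6864 in Cys. The highest sum, in Cys, was 1.09 times that of WT (95% counting interval 1.08 to 1.11), and the lowest, in het, was 0.910 times that of WT (0.894 to 0.926). The ratio to WT was 1.09 in fetal (1.07 to 1.10) and 1.04 in Bud (1.02 to 1.06). Intervals cover counting error only. With 1 library per group the spread between cultures is unknown and no test was made. In sums over a library, fewer cells with a transcript and fewer transcripts per cell cannot be told apart.

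Members with 10 or more UMIs in the compared libraries together were taken as measured, and a member was called higher or lower when its level differed by at least 1.5-fold with an interval that excluded 1. All 4 comparisons with WT share that library, so their values are set side by side and not counted as separate evidence. Of 46 members measured in fetal against WT, 5 were called higher and 5 lower, where 51.7% of all measured genes were called (29.4% higher and 22.3% lower). In het against WT, none of 46 was higher and 1 was lower, where 17.3% of all genes were called (8.43% and 8.83%). Bud against WT gave 1 higher and 1 lower of 46, where 14.5% of all genes were called (5.79% and 8.67%). Cys against WT gave 3 higher and 4 lower of 45, where 39.7% were called (17.6% and 22.0%). In Cys against Bud, 2 of 45 were higher and 7 lower, with 38.7% of all genes called (19.2% and 19.5%), and in Cys against fetal, 2 of 46 were higher and 4 lower, with 44.6% called (16.0% and 28.6%). The share of members called was 21.7%, 2.17%, 4.35%, 15.6%, 20% and 13.0% in these comparisons in the same order, each below the share of all genes. In all, 20 of the 47 members were called in at least 1 comparison and 27 in none, where 72.3% of the 13117 genes measured in at least 1 comparison were called at least once.

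The median log2 ratio of the members, taken after adding 10 CPM to both levels, was 0.13 in fetal, -0.14 in het, 0.04 in Bud and 0.07 in Cys against WT. Over all measured genes it was 0.06, -0.02, -0.04 and -0.06. In Cys against Bud and Cys against fetal the members' median was 0.03 and -0.04, beside -0.03 and -0.11 for all genes. The members of het lay slightly but widely below WT, with 38 of 46 log2 ratios under 0, from -0.51 to 0.31. Among the others, 30 of 46 were above 0 in fetal, 27 of 46 in Bud and 27 of 45 in Cys. Without the wells rich in Kcnq1ot1, of which het had the most, the summed ratio of het to WT was 0.929. In those wells of het the median member level per well was 1522 CPM, and in the other wells 5684 CPM.

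**Figure D1:**
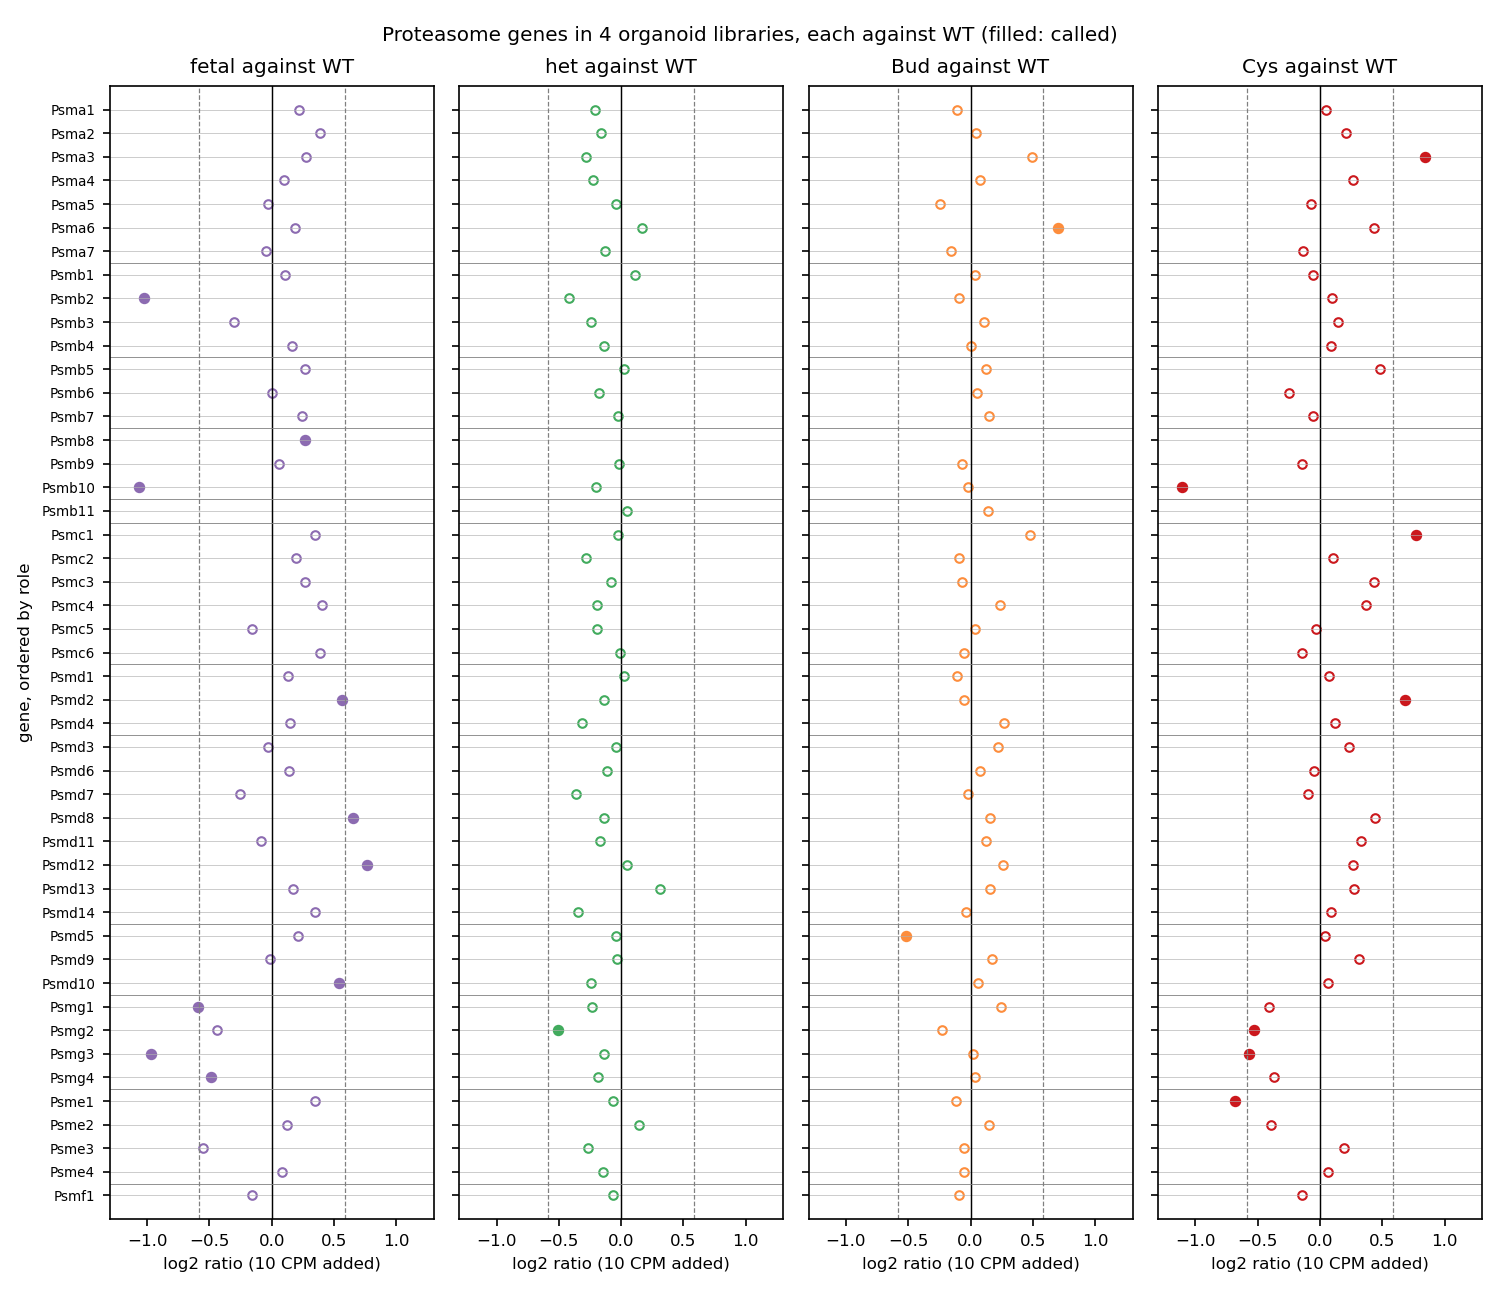
Log2 ratio to WT (10 CPM added to both levels) of each measured member, in rows ordered by role and separated by lines, for fetal, het, Bud and Cys. Filled points were called, the dashed lines mark 1.5-fold, and a low gene such as Psmb8 can be called inside them because the added 10 CPM shrinks its log2 ratio; most points lie near 0, the 4 Psmg genes lie below 0 in fetal, het and Cys, and Psma3, Psma6 and Psmc1 lie highest in Bud.

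Other large assemblies were examined in the same way, and the medians of the respiratory chain and of the cytosolic ribosome lay below WT in fetal and Cys. Of 77 measured genes of oxidative phosphorylation, the mitochondrial chain that makes ATP, 48 were lower and 1 higher in fetal (median log2 ratio -0.65), and of 76 measured in Cys 22 were lower (median -0.46). For the ribosomal proteins of the cytosol the median was -0.34 in fetal and -0.23 in Cys, with 11 of 75 and 3 of 74 lower. Over all measured genes 22.3% were called lower in fetal and 22.0% in Cys, more than among the ribosomal proteins. The CCT chaperonin, a ring that folds actin and tubulin, had 8 genes with a median of 0.17 in fetal and -0.17 in Cys, and 1 of them was lower in Cys.

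The 20S core and the 19S particle were both at their lowest in het. The 14 core subunits summed to 3336 CPM in fetal, 3108 in WT, 2857 in het, 3289 in Bud and 3467 in Cys. The 17 subunits of the particle summed to 2581, 2152, 1955, 2259 and 2521 CPM in the same order. The particle took 43.6% of the UMIs of the 31 subunits in fetal (43.1 to 44.1) and 42.1% in Cys (41.5 to 42.7), beside 40.9% in WT (40.2 to 41.6), 40.6% in het and 40.7% in Bud. The counting interval of fetal lay above that of WT, and that of Cys overlapped its upper end. Of the 31 subunits, 7 were called in at least 1 comparison, against the 72.3% of all genes, and 6 had a share of their own subcomplex that ranged by 1.5 times or more over the libraries.

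**Figure D2:**
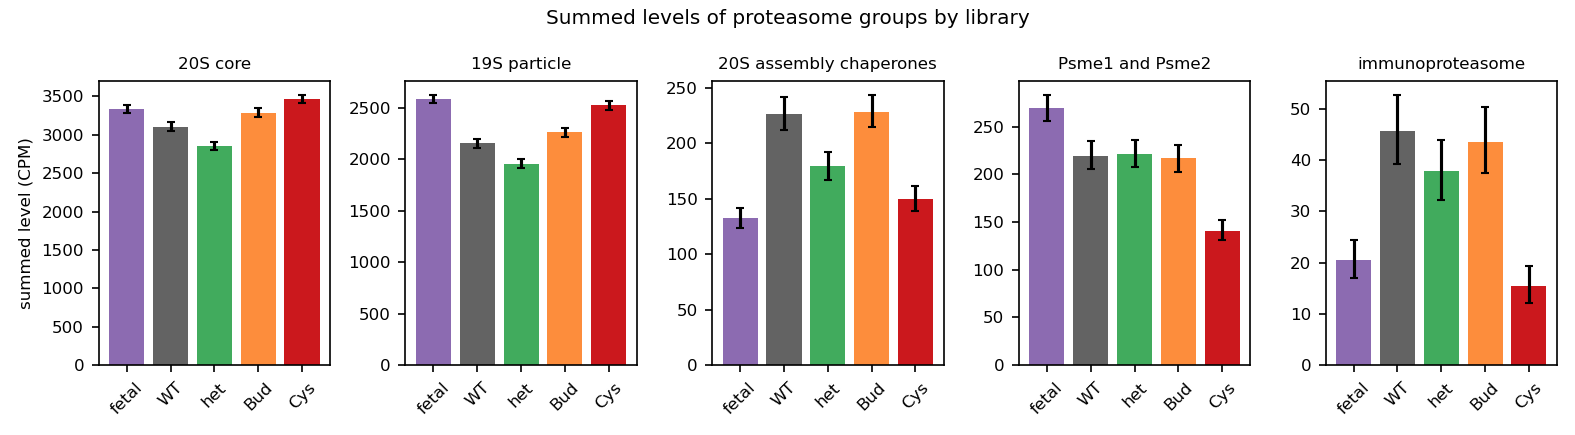
Summed levels in CPM (vertical axis, from 0) of the 20S core, the 19S particle, the 20S assembly chaperones, Psme1 with Psme2, and the immunoproteasome subunits in each library, with 95% counting intervals as error bars. The core spans 2857 to 3467 CPM, while the chaperones span 132 to 229 CPM and the immunoproteasome subunits 15.5 to 45.6 CPM.

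In the alpha ring, the outer ring that gates the barrel, Psma3 and Psma6 stood apart. Psma3 was at 325 CPM in fetal, 266 in WT, 217 in het, 378 in Bud and 486 in Cys. Its ratio to WT was 1.83 in Cys (1.70 to 1.96), a call, and 1.42 in Bud (1.31 to 1.54), below the fold required. Psma6 was at 125 CPM in fetal, 108 in WT, 123 in het, 182 in Bud and 149.6 in Cys. It was called higher in Bud, at 1.68 times WT (1.496 to 1.90). With het as reference in place of WT this call was lost (log2 ratio 0.53). The share of Psma3 in the 20S core UMIs ranged from 7.60% in het to 14.0% in Cys. The other 5 alpha subunits were called in no comparison. Psma5 was the lowest of the ring in Bud, at 225 CPM against 268 in WT (log2 ratio -0.24), and Psma3 in Cys against fetal, at a ratio of 1.4955 (1.41 to 1.59), lay just short of a call.

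In the 19S base, the ring of ATPases and its scaffold, Psmc1 and Psmd2 were the members that differed most. The ATPase Psmc1 was at 135 CPM in fetal, 104 in WT, 102 in het, 149.6 in Bud and 185 in Cys. It was called higher in Cys, at 1.78 times WT (1.58 to 1.998), and was 1.43 times WT in Bud (1.26 to 1.63). Psmd2, the scaffold on which shuttle proteins dock, was at 163 CPM in fetal, 107 in WT, 96.2 in het, 103 in Bud and 178 in Cys. The fetal and Cys levels lay above the other 3 with no overlap of their counting intervals. Psmd2 was called higher in fetal (1.53 times WT, 1.36 to 1.71), in Cys (1.66 times WT, 1.48 to 1.87) and in Cys against Bud (1.73, 1.54 to 1.95). With ribosomal protein genes, Rn45s and Kcnq1ot1 left out of the library total the fetal call was lost (log2 ratio 0.50). Psmc3, another ATPase, was 1.46 times higher in Cys than in Bud (1.30 to 1.64), which fell short of a call, and Psmc6 stood at 156 CPM in Cys against 230.2 in fetal (ratio 0.679, 0.621 to 0.743).

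Psma3, Psma6 and Psmc1 are the 3 members on chromosome 12, and each was higher in Bud and Cys than in WT. Their log2 ratios were 0.49, 0.70 and 0.48 in Bud and 0.84, 0.43 and 0.77 in Cys. The other genes of chromosome 12 with enough UMIs also lay above WT in both libraries. The median log2 ratio of 292 such genes was 0.25 in Bud, and 75.7% of them lay above 0. In Cys the median of 308 genes was 0.38, and 79.2% lay above 0. The medians of the other 19 chromosomes ran from -0.09 to 0.00 in Bud and from -0.45 to -0.02 in Cys, so chromosome 12 was the highest of 20 in both. In het the median of chromosome 12 was 0.00. Relative to the chromosome 12 median, Psma3 stood 0.24 higher in Bud and 0.47 in Cys, Psmc1 0.23 and 0.40, and Psma6 0.45 and 0.06. The part of the chromosome in the levels of these members was not tested. Without the 3 members, an alternative chosen after seeing the data, the summed ratio to WT was 1.00 in Bud (0.986 to 1.02) and 1.04 in Cys (1.02 to 1.06).

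**Figure D3:**
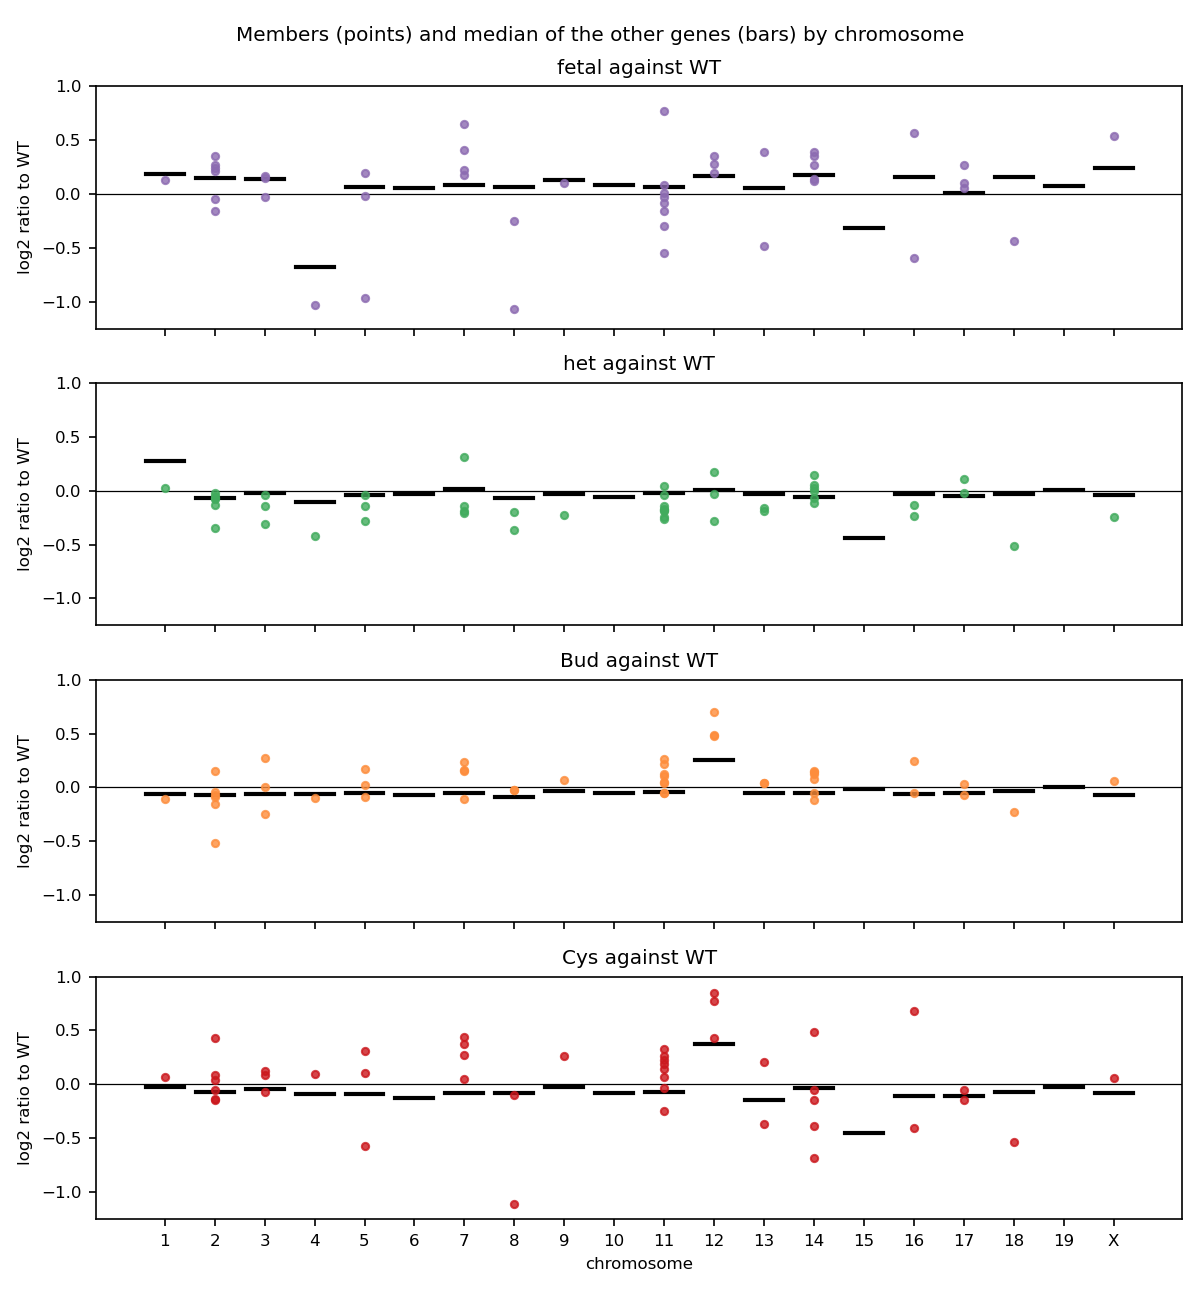
Log2 ratio to WT (vertical axis, 10 CPM added) of the measured members (points) by chromosome (horizontal axis) in fetal, het, Bud and Cys, with a bar at the median of the other genes of each chromosome that had at least 100 UMIs. In Bud and Cys the chromosome 12 bar lies above all other bars, at 0.25 and 0.38, and its 3 members lie above it; in het the highest bar is chromosome 1, and in fetal the lowest is chromosome 4, at -0.68, with Psmb2 below it.

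Chromosome 1 had the highest median in het, at 0.27, and holds 1 member. This was Psmd1, the other large scaffold of the base, at 257 CPM in het and 253 in WT (log2 ratio 0.02). Chromosome 15 had the lowest median in het (-0.44) and in Cys (-0.45) and holds no member.

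Among the structural beta subunits, Psmb2 was low in fetal organoids. It was at 56.4 CPM in fetal, 125 in WT, 91.2 in het, 117 in Bud and 135 in Cys. Fetal was 2.22-fold lower than WT (1.93 to 2.56), and Cys was 2.39 times fetal (2.10 to 2.74). Psmb2 is the 1 member on chromosome 4, and the other genes of that chromosome moved with it. Their median log2 ratio in fetal against WT was -0.68 over 547 genes, of which 16.6% lay above 0, the lowest of 20 chromosomes, where the others ran from -0.31 to 0.24. In Cys against fetal it was 0.59 over 541 genes, the highest of 20, where the others ran from -0.25 to 0.17. The log2 ratio of Psmb2 was -1.03 and 1.13 in these comparisons, and its difference from the chromosome median was -0.35 and 0.54. The part of the chromosome in the level of Psmb2 was not tested. Psmb2 took 1.69% of the 20S core UMIs in fetal and 3.19% (het) to 4.04% (WT) elsewhere. The log2 ratio to WT was also among the lowest in het, at -0.42, without a call. Psmb1, Psmb3 and Psmb4 were called in no comparison.

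The constitutive catalytic subunits differed from WT by less than the fold required for a call. Psmb5, which cuts after hydrophobic residues, was at 159 CPM in fetal, 131 in WT, 133 in het, 143 in Bud and 187 in Cys. Psmb6, which cuts after acidic residues, was at 185, 185, 162, 192 and 154 CPM in the same order. Psmb7, which cuts after basic residues, was at 355, 299, 294, 332 and 287 CPM. None of them was called, but the counting intervals of Psmb5 in fetal and Cys and of Psmb7 in fetal lay above those of WT. That of Psmb6 in Cys lay below that of WT, and the other intervals overlapped those of WT. The largest log2 ratio to WT was that of Psmb5 in Cys, at 0.48, which passed the call rule when every cell had equal weight (0.57) and with median-of-ratios scaling (0.57).

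The immunoproteasome subunits were scarce. Psmb8 had 17 UMIs in fetal, 3 in WT, 1 in Cys and none in het and Bud. It was called higher in fetal than in WT (ratio 3.90, 1.13 to 20.8) and lower in Cys than in fetal (ratio 0.0693, 0.00166 to 0.442), both on these few UMIs. Psmb9 had 13 UMIs in fetal, 7 in WT, 7 in het, 5 in Bud and 3 in Cys, and was called lower in Cys than in fetal (ratio 0.272, 0.0497 to 0.989). Psmb9 overlaps Tap1 in the annotation. Psmb11, the subunit of thymus epithelium, had 1 UMI in Cys and 9 in Bud (ratio 0.0937, 0.00214 to 0.676) and 2 to 6 in the other libraries.

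Psmb10 carried nearly all UMIs of this group and fell into high and low libraries. It was at 43.1 CPM in WT (36.9 to 50.0), 36.2 in het and 42.4 in Bud, but at 15.3 in fetal (12.3 to 18.9) and 14.7 in Cys (11.5 to 18.4). Fetal was 2.81-fold lower than WT (2.17 to 3.67), Cys 2.94-fold lower than WT (2.23 to 3.92) and 2.89-fold lower than Bud (2.19 to 3.85). The call and the direction of Psmb10 in fetal and in Cys held under all 11 alternative settings, which include het as reference in place of WT. The log2 ratios ran from -1.43 to -0.87 in fetal and from -1.49 to -0.91 in Cys. The weaker end of each range was the ratio to het. Psmb10 and Psmb7 occupy the same place in the core, and Psmb10 made up 12.6% of their UMIs in WT (10.9 to 14.5), 11.0% in het, 11.3% in Bud, 4.14% in fetal (3.34 to 5.06) and 4.86% in Cys (3.83 to 6.08). Tags were counted per transcript and not per length, and how well the tag of each gene is captured is not known, so the share serves to compare libraries. Summed leukocyte markers were at 5.23 to 28.0 CPM, with 4 to 6 of the 11 listed genes without a UMI. They were at 28.0 CPM in fetal, 11.6 in Cys, 8.57 in Bud, 5.95 in WT and 5.23 in het. Their part in the level of Psmb10 was not tested. The macrophage gene Cd68 gave 24.9 CPM of the fetal sum and 6.83 CPM of the Cys sum. The enterocyte list of 20 genes divided the libraries as Psmb10 did, at a summed 4286 CPM in WT, 7849 in het and 1904 in Bud against 246 in fetal and 271 in Cys, with 9 and 5 of its genes at 0 in the last pair. Among the cells of het, Psmb10 was 2.07 times higher in the tercile with the largest share of enterocyte UMIs than in the lowest (1.30 to 3.42). The same ratio was 1.10 in fetal, 1.10 in WT, 1.30 in Bud and 1.48 in Cys, where the intervals included 1. The part of enterocyte cells in the level of Psmb10 was not tested.

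**Figure D4:**
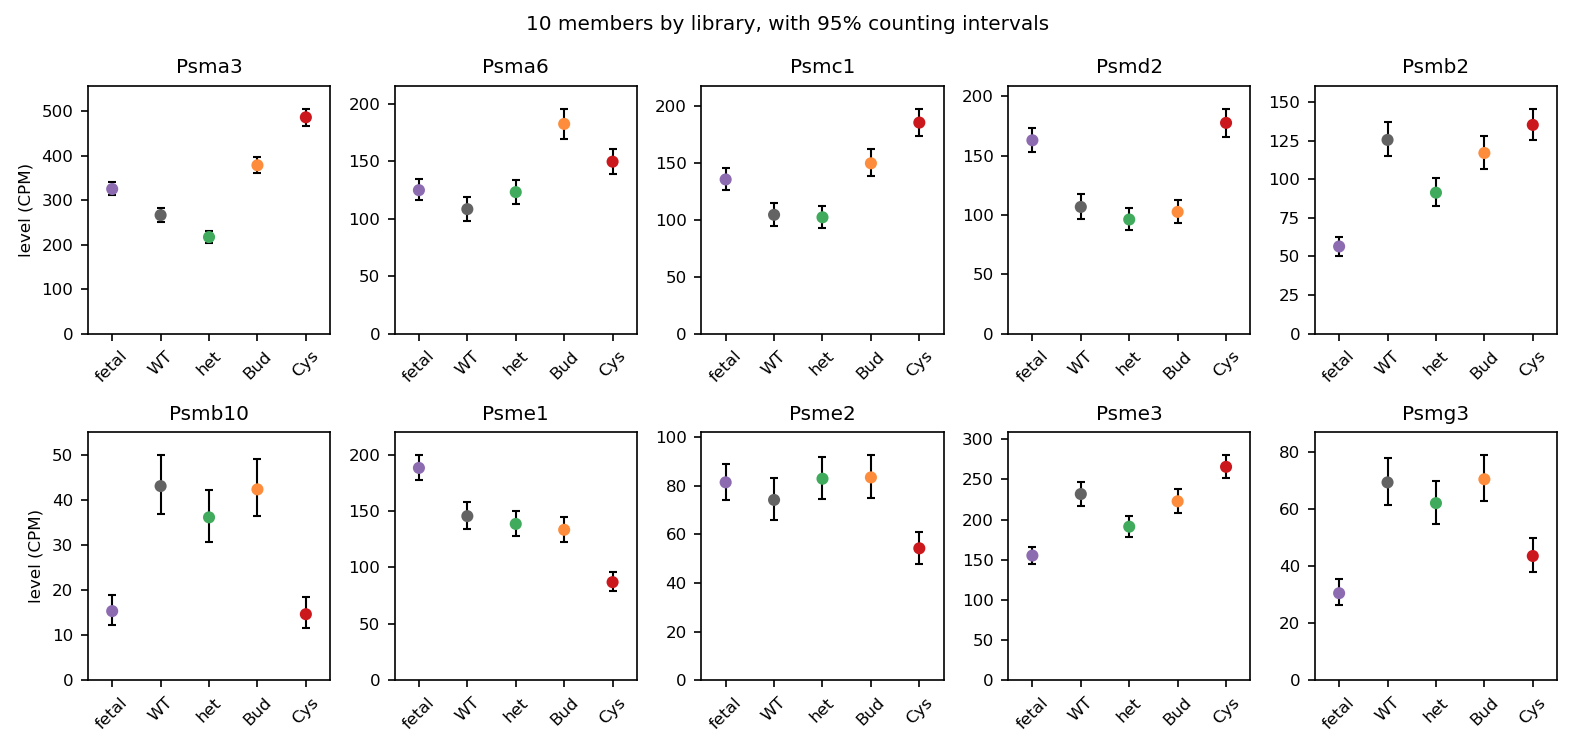
Levels in CPM (vertical axis, from 0) of 10 members in each library, with 95% counting intervals. Psmb10 and Psmg3 are low in fetal and Cys, Psme1 and Psme2 are low in Cys, Psmb2 and Psme3 are low in fetal, Psmd2 is high in fetal and Cys, and Psma3 and Psmc1 are highest in Cys.

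The PA28 activator, a ring of Psme1 and Psme2 that opens the core and is known as an interferon target, was low in Cys. Psme1 was at 188 CPM in fetal, 145 in WT, 139 in het, 133 in Bud and 86.9 in Cys. Cys was 1.67-fold lower than WT (1.48 to 1.90), 1.53-fold lower than Bud (1.35 to 1.74) and 2.17-fold lower than fetal (1.94 to 2.43). Psme2 was at 81.3, 74.1, 82.8, 83.3 and 54.2 CPM in the same order. The Cys level of Psme2 lay below the interval of every other library and was called lower against Bud (ratio 0.650, 0.553 to 0.764) and fetal (0.667, 0.572 to 0.775). The call of Psme1 against Bud was lost with median-of-ratios scaling (log2 ratio -0.53), as were those of Psme2 against Bud (-0.50) and fetal (-0.44). Psme3, the activator of the nucleus, was low in fetal instead, at 155 CPM against 232 in WT, 191 in het, 223 in Bud and 266 in Cys. It was called higher in Cys than in fetal (ratio 1.71, 1.57 to 1.86). Psme4 and the inhibitor Psmf1 were called nowhere.

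In the 19S lid, which removes the ubiquitin chain, Psmd8 and Psmd12 were higher in fetal. Psmd12, a structural subunit of the lid, was at 121 CPM in fetal, 67.2 in WT, 69.6 in het, 82.6 in Bud and 82.5 in Cys, and fetal was 1.80 times WT (1.56 to 2.08). Psmd8 was at 220.3 CPM in fetal, 137 in WT, 123 in het, 153 in Bud and 189 in Cys, and fetal was 1.61 times WT (1.46 to 1.79). In het the lid held both ends of the range of the core subunits other than Psmb2: Psmd13 was at 92.4 CPM against 72.4 in WT (ratio 1.28, 1.10 to 1.49), and Psmd7 at 122 against 159.6 (0.763, 0.679 to 0.857). Neither was called, nor was any other lid subunit, the deubiquitinase Psmd14 included.

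Of the 3 chaperones that assemble the 19S base, Psmd10 was higher in fetal and Psmd5 lower in Bud. Psmd10, also known as gankyrin, was at 58.1 CPM in fetal, 36.9 in WT, 29.6 in het, 38.8 in Bud and 38.9 in Cys (fetal to WT 1.57, 1.30 to 1.92). Psmd5 was at 81.2, 68.6, 66.2, 45.01 and 71.1 CPM. Bud was 1.53-fold lower than WT (1.26 to 1.84), and Cys was 1.58 times Bud (1.32 to 1.89). The call of Psmd10 in fetal was lost with ribosomal protein genes, Rn45s and Kcnq1ot1 left out of the library total. The call of Psmd5 in Bud against WT was lost without the wells rich in Kcnq1ot1 (log2 ratio -0.49) and with both other scalings (-0.47 and -0.50). That call of Psmd5 was also lost with het as reference (-0.47).

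The chaperones of the 20S core, which help to build the alpha ring, were low in fetal and Cys. Their summed level was 226 CPM in WT (212 to 241), 229 in Bud (214 to 244), 179.5 in het (167 to 192), 149.96 in Cys (139 to 161) and 132 in fetal (123 to 142). All 4 members lay below WT in fetal, in het and in Cys, with 3, 1 and 2 of them called. Over all measured genes, 22.3%, 8.83% and 22.0% were called lower in these libraries. In het most members lay below WT, as did all 6 ATPases of the 19S base, whose summed ratio to WT there was 0.908 (0.863 to 0.955), beside 0.793 (0.720 to 0.874) for the chaperones. Psmg3 was at 30.5 CPM in fetal, 69.4 in WT, 62.1 in het, 70.5 in Bud and 43.6 in Cys, and was 2.27-fold lower in fetal (1.88 to 2.76) and 1.59-fold lower in Cys than in WT (1.33 to 1.91). It was also called lower in Cys than in Bud. Psmg1 was at 35.0, 57.7, 47.6, 70.3 and 41.2 CPM, and was called lower in fetal against WT (ratio 0.605) and in Cys against Bud (0.586). Psmg2, its partner, was at 51.8, 73.8, 48.9, 61.7 and 48.0 CPM, and was called lower in het (ratio 0.662, 0.553 to 0.792) and in Cys (0.650, 0.546 to 0.773). Psmg4, the partner of Psmg3, was at 15.2, 25.3, 20.9, 26.2 and 17.3 CPM, and was called lower in fetal against WT (0.600) and in Cys against Bud (0.659). Most of these calls rest on folds near 1.5. The call of Psmg2 in het was lost without the wells rich in Kcnq1ot1 (log2 ratio -0.50). Those of Psmg2 and Psmg3 in Cys against WT were lost with median-of-ratios scaling (-0.45 and -0.49). The call of Psmg4 in Cys against Bud was lost with that scaling too. With het as reference in place of WT, the calls of Psmg1 and Psmg4 in fetal were lost (-0.36 and -0.30). The calls of Psmg2 and Psmg3 in Cys were lost against het too, with Psmg2 near its het level (-0.02). Psmg3 in fetal kept its call against het.

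Within each library, the cells with more transcripts of cell cycle genes had more proteasome transcripts. Cells were ranked by the share of their UMIs from 32 genes of replication and mitosis, and the upper tercile was set beside the lower. The members' summed level in the upper tercile was 1.31 times that in the lower in fetal (1.28 to 1.34) and 1.254 times in WT (1.21 to 1.30). In het it was 1.35 (1.31 to 1.39), in Cys 1.29 (1.26 to 1.33) and in Bud 1.20 (1.16 to 1.24). The direction was the same in 5 of 5 libraries, also without the wells rich in Kcnq1ot1 (1.31, 1.21, 1.30, 1.11 and 1.24). Cells of a library are not replicates, and the intervals again cover counting only.

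For the 20S chaperones the difference between terciles was larger: 1.45 times in fetal (1.21 to 1.73), 1.55 in Cys (1.27 to 1.90), 1.87 in Bud (1.53 to 2.30), 2.37 in WT (1.92 to 2.95) and 2.44 in het (1.99 to 2.999). Their level in the lower tercile was 112 CPM in fetal, 113 in WT, 92.8 in het, 144 in Bud and 109 in Cys, and in the upper tercile 162, 269, 226, 269 and 169.6 CPM. Fetal and WT stood close to each other in the lower tercile and apart in the upper. The cell cycle list itself was lower in fetal (2662 CPM), Cys (3579) and het (3610) than in Bud (4051) and WT (4684.5). The part of the cell cycle in the chaperone levels of the libraries was not tested. The cell cycle terciles of Psmb10 stood at a ratio of 0.661 (Cys) to 1.09 (Bud). In het the ratio was 0.664 (0.457 to 0.966), the reverse of the chaperones, and 0.640 (0.432 to 0.945) without the wells rich in Kcnq1ot1, and in the other 4 libraries the interval included 1. Those of Psme1 with Psme2 stood at 0.922 (WT) to 1.10 (Bud), each with an interval that included 1.

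**Figure D5:**
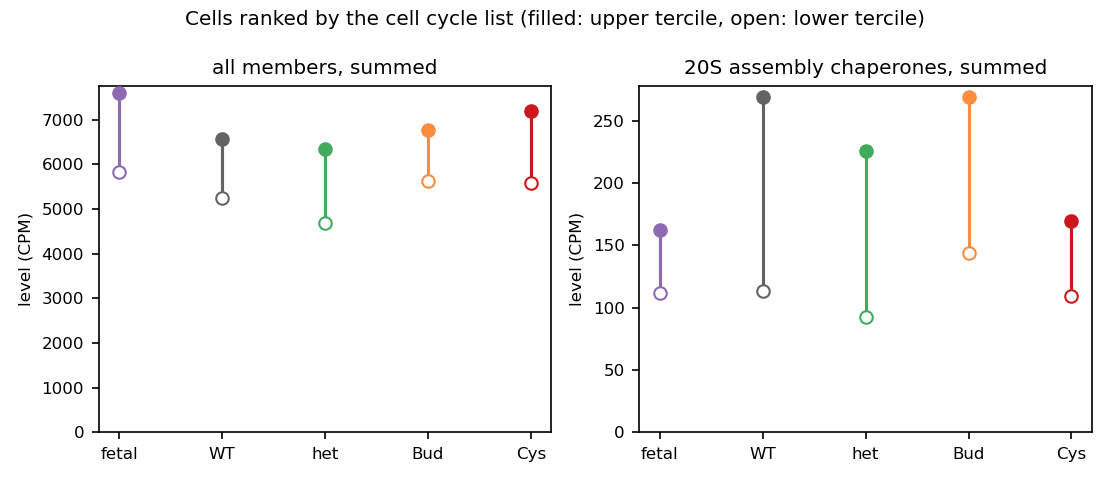
Summed level in CPM (vertical axes, from 0) of all members (left) and of the 4 chaperones of the 20S core (right) in the upper (filled) and lower (open) tercile of the cells of each library, ranked by the cell cycle list. The filled point lies above the open point in all 5 libraries in both panels, and the gap of the chaperones is widest in WT and het.

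The same ranking by UMIs per well gave higher member levels in the upper tercile in 5 of 5 libraries, from 1.16 times in fetal to 1.79 in het, and from 1.15 (WT and Bud) to 1.30 (Cys) without the wells rich in Kcnq1ot1. Ranked by Kcnq1ot1, the upper tercile was lower in 5 of 5 libraries, from 0.678 in het to 0.901 in fetal. Among the cells of a library the member level thus went up with depth and cell cycle transcripts and down with Kcnq1ot1. Their separate parts were not tested. Ranked by enterocyte genes, the marks of absorptive cells, the members were higher in the upper tercile in Bud only (1.11, 1.08 to 1.15), and the ratio was 1.02 (0.990 to 1.06) without the wells rich in Kcnq1ot1. Per cell, the levels of core and particle went up and down together, with a Pearson correlation across cells of 0.56 in fetal, 0.44 in WT, 0.60 in het, 0.37 in Bud and 0.65 in Cys, given as a description since both share the total and depth of the well. Without the wells rich in Kcnq1ot1 it was 0.56, 0.28, 0.41, 0.17 and 0.60.

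Genes that work with the proteasome were examined from a list of partners that the name rule misses. Of 9 measured in fetal against WT, Usp14 (a deubiquitinase of the particle, 240.9 against 157 CPM) and Nfe2l1 (53.9 against 35.2) were higher, and AI314180 (the adaptor Ecm29) was lower (40.4 against 101). In Cys 1 of 9 was higher, Ngly1, the enzyme that removes sugars from Nrf1 (26.3 against 16.9 CPM). None of 10 was called in het and none of 9 in Bud. Shfm1, the smallest subunit of the lid, was at 177 CPM in Cys and 179 in WT. Txnl1, the listed partner with the highest level in WT, was at 208 CPM there and 189.5 in Cys. For this list and those below, the share of all genes called against WT was 29.4% higher and 22.3% lower in fetal. In Cys it was 17.6% and 22.0%, in Bud 5.79% and 8.67%, and in het 8.43% and 8.83%.

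Among genes of ubiquitin and its shuttles, calls in fetal against WT went in both directions. The shuttle Ubqln2 was at 161 CPM in fetal and 19.3 in WT (ratio 8.31, 6.59 to 10.6) and the autophagy receptor Sqstm1 at 359 and 138, both called higher, whereas the shuttle Rad23b was lower (128 and 216). In Cys, Ubqln2 (50.8 CPM) and Sqstm1 (222 CPM) were higher than in WT. Ubqln2 was lower in Bud, at 9.05 CPM. Rps27a, a ribosomal protein fused to ubiquitin and the listed gene with the highest level, was at 2208 CPM in WT and 1661 in Cys.

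Genes of MHC class I presentation, which uses the peptides of the proteasome, were called in both directions. In fetal 5 of 11 measured were higher than in WT (H2-D1, Tap1, Tap2, Tapbp and Pdia3) and 1 was lower (Erap1). The peptide transporter Tap1 was at 19.6 CPM in fetal and 4.21 in WT, and the heavy chain H2-D1 at 395 and 177. In Cys 6 of 11 were higher (H2-D1, H2-T23, Tap1, Tapbp, Pdia3 and Calr) and 2 lower (B2m and Erap1). B2m, the light chain of the class I complex, was at 197 CPM in Cys against 571 in WT (2.89-fold lower, 2.68 to 3.12), whereas the chaperone Calr was at 1075 against 554. None of the 11 measured in het and none of the 10 in Bud was called.

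Of the interferon list, 5 of 10 measured genes were higher in fetal (Stat2, Irf9, Gbp7, Bst2 and Ifitm3), and in Cys 2 of 8 were higher (Stat2 and Bst2) and 1 lower (Ifitm3). In het 3 of 9 were higher (Irf7, Irf9 and Isg15) and 2 lower (Irf1 and Ifitm3), and in Bud 2 of 8 were lower (Bst2 and Ifitm3). Ifitm3, the listed gene with the highest level, was at 1026 CPM in fetal, 243 in WT, 0.683 in het, 0.714 in Bud and 0.803 in Cys.

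Targets of Nrf2, a relative of Nrf1 that binds the same element, were mostly higher in Cys. Of 9 measured in Cys against WT, 5 were higher and 1 lower. The higher genes were Hmox1 (32.5 against 3.22 CPM), Gclm (285 against 118), Gclc (322 against 133), Srxn1 (51.0 against 33.2) and G6pdx (444 against 170.003), and Slc7a11 was lower (27.3 against 65.4). Prdx1, the listed gene with the highest level, was at 1540.4 CPM in Cys and 1137 in WT. In the same comparison the 5 members with the antioxidant response core were not called. Psmb5 (187 against 131 CPM), Psmd9 (22.7 against 16.4) and Psmd12 (82.5 against 67.2) lay above WT. Psmb6 (154 against 185) and Psmc6 (156 against 174) lay below it. The part of the element in these levels was not tested. In fetal 2 of 9 were higher (Hmox1 and Gclc) and 2 lower (Nqo1 and Prdx1), in Bud 2 of 9 were lower (Nqo1 and Srxn1) and in het none of 9 was called.

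Of 9 genes of the heat shock response, 3 were higher and 2 lower in fetal, and 2 were higher and 2 lower in Cys. These counts were close to the shares of all genes called in the same comparisons. The inducible Hspa1b was at 95.5 CPM in fetal, 28.7 in Cys, 11.1 in het, 12.1 in Bud and 3.72 in WT, and was called higher in all 4. The mitochondrial chaperone Hspd1 was lower in fetal and Cys, at 295 and 376 CPM against 606, as was its partner Hspe1 (497 and 528 against 907), while Hspa1a and Bag3 were also higher in fetal, Hspa1a also in Cys, and Hsp90aa1 was lower in het. Hspa8, the listed gene with the highest level, was at 2073 CPM in Cys and 2261 in WT.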

How the data were processed

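SORT-seq UMIs were analysed in 5 libraries, 1 per group. Per the deposited tables, the authors' UMI table holds raw counts of genes by wells. The authors also deposited a transcript table of estimated counts, which equal the UMI counts corrected for collisions among 4096 codes (largest deviation 3.64e-12). It was used, rounded after summing, as an alternative. The deposited read counts were not used. Per the submitters' processing notes, GRCm38 was the build, and the tools listed are Seurat 4.1.0, featureCounts 1.5.2 and STAR 2.6.1. Whether strand was used, and how multimapping reads were treated, are not given in the sources here. Of the 48 genes, 23 overlap another annotated gene (GENCODE vM21, 9 on the same strand), so their levels are uncertain in that respect.

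Wells were kept from 1000 UMIs upward, without spike-ins, and the tables held no gene with a mitochondrial name. No doublet caller was run, since wells held sorted cells. UMIs were summed per library and scaled to CPM by the total. Ratios have exact conditional binomial 95% intervals, levels exact Poisson intervals and shares exact Clopper-Pearson intervals. The call rule was tested on simulated data. Psmb8, Psmb9 and Psmb10 with Psmb5, Psmb6 and Psmb7 were always named, as was each member called in a comparison and, per comparison, the 3 highest and 3 lowest log2 ratios among members with at least 50 UMIs; of other lists, called genes and the gene with the highest level. Some genes of the ubiquitin list are not reported here. Members and lists were chosen with earlier results of these data known. Python 3.11.15, numpy 2.4.6, scipy 1.17.1, pandas 2.3.3 and matplotlib 3.10.9 were used. The 11 alternative settings changed the reference library, table, well filter, cell weights, scaling, added CPM, minimum UMIs and fold.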

Additional observations from a re-analysis of the deposited data

How the results depend on the processing

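Of 708 log2 ratios of named members under 11 alternative settings, 654 stayed on their side of the call rule, 33 lost a call, 21 gained a call and 0 changed sign across a call. Under the same settings the summed ratio of the members to WT stayed between 0.855 and 0.950 in het. It ran from 1.04 to 1.14 in Bud, 1.07 to 1.20 in Cys and 1.03 to 1.19 in fetal. For Bud, Cys and fetal the upper end was the ratio to het, from the setting with het as reference. In Cys against Bud the summed ratio stayed between 1.03 and 1.08. In Cys against fetal it ran from 0.931 to 1.07, on both sides of 1. With het as reference in place of WT, 3 members were lower in fetal, 2 higher and 0 lower in Bud and 5 higher in Cys, and the median log2 ratio was 0.20 in Bud and 0.22 in Cys. With median-of-ratios scaling 0 were lower in het and 0 in Bud, 2 in Cys against WT, 4 in Cys against Bud, and 4 were higher and 2 lower in Cys against fetal. With ribosomal protein genes, Rn45s and Kcnq1ot1 left out of the total, 3 were higher in fetal, 0 lower in het and 0 in Bud, and 5 higher and 2 lower in Cys against fetal. These scalings moved a ratio by at most 0.09 on the log2 scale. Without the wells rich in Kcnq1ot1, 0 were lower in het and 0 in Bud. With equal weight for every cell the median was -0.22 in het and -0.17 in Cys against fetal, and 2 were higher in Bud. The transcript table gave 7 lower in Cys against fetal, and a minimum of 50 UMIs gave 2 lower there. Calls from a difference of 25% upward gave 11 higher in fetal, 1 higher and 5 lower in het, 3 higher in Bud, 10 higher and 7 lower in Cys against WT, 5 higher in Cys against Bud and 8 higher and 7 lower in Cys against fetal. Without the members on chromosome 12, a setting chosen after seeing the data, 0 were higher in Bud and 1 in Cys against WT, and the summed ratio was 1.00 and 1.04. The causes of these shifts were not tested. No paired analysis was possible because each group has 1 library. Psmb8, Psmb9 and Psmb11 had too few UMIs for their ratios to be more than coarse.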
